A study of Homo sapiens with 8 samples.

Results

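The 10 genes described here encode receptors and adaptors through which interleukin-1, interleukin-17 and microbial products switch on NF-kB in epithelial cells. They were chosen by name, as rows of the expression table carrying the symbols IL1R1, IL1RAP, IL17RA, IL17RC, TLR2, TLR4, TLR5, CD14, MYD88 and TRAF3IP2. All 10 were found among 59641 deposited genes. RNA sequencing of poly(A)-selected libraries was done in HCT116, an established human colorectal cancer line, in 4 control samples labelled as untreated and in 4 samples that received 100 ng/ml of hFGF19 for 72 hours, hFGF19 being the human form of a growth factor of the FGF family. The time that the controls spent in culture is not given in the sources used here, and it is not stated that replicates were cultured apart, so the p-values speak of the spread among these libraries, which may be technical.

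Interleukin-1 binds IL1R1, which then recruits IL1RAP, and the cytoplasmic TIR domains of this pair bind the adaptor MYD88. Toll-like receptors carry the same kind of domain and use MYD88 too, whereas interleukin-17 binds a complex of IL17RA and IL17RC whose related SEFIR domains bind another adaptor, ACT1, the product of TRAF3IP2. Both routes pass through TRAF6 to the kinases that release NF-kB, and in intestinal epithelium they induce neutrophil chemokines and antimicrobial proteins. The title of the series places NF-kB downstream of FGF19, and the comparison of the groups shows whether transcripts of these upstream genes differed after exposure.

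Levels are in FPKM, which divides the reads of a gene by its length in kilobases and scales by the reads of the library. The libraries held 17121190 to 20752753 reads counted to genes. The line's label was set against marker genes. The epithelial markers EPCAM, KRT8, KRT18, KRT19 and CDH1 had control means from 27.9 FPKM (EPCAM) to 1488 FPKM (KRT8), while the intestinal markers CDX1, CDX2 and VIL1 had 0, 2 and 30 reads over the 4 controls. Changes are hFGF19 minus control in log2(FPKM + 1), a scale that shrinks differences of low values. They were tested by limma, and p-values were adjusted over the 14100 genes that averaged 1 FPKM or more.

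The cells held transcripts of both interleukin receptor complexes, of TLR4 and of both adaptors at moderate levels, little TLR5 and CD14, and TLR2 at the limit of detection. None of the 9 members above the filter passed the test: 0 of 9 had an adjusted p below 0.05 by limma, against 0.106% of all genes tested, and 0 of 9 had an unadjusted p below 0.05, against 4.23% of all genes. In a fit blocked on replicate number, 0 of 9 passed and 1 of 9, TRAF3IP2, had an unadjusted p below 0.05, against 6.88% of all genes (limma). The adjusted p was 0.9998 for each of the 9 (limma), and voom on recovered reads also called 0. In 0 of 9 members did the groups lie apart without overlap, against 3.12% of all genes. The log2 change was above 0 in 7 of 9, against 43.7% of all genes, and its median was 0.08, against -0.01 over all genes.

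**Figure D1:**
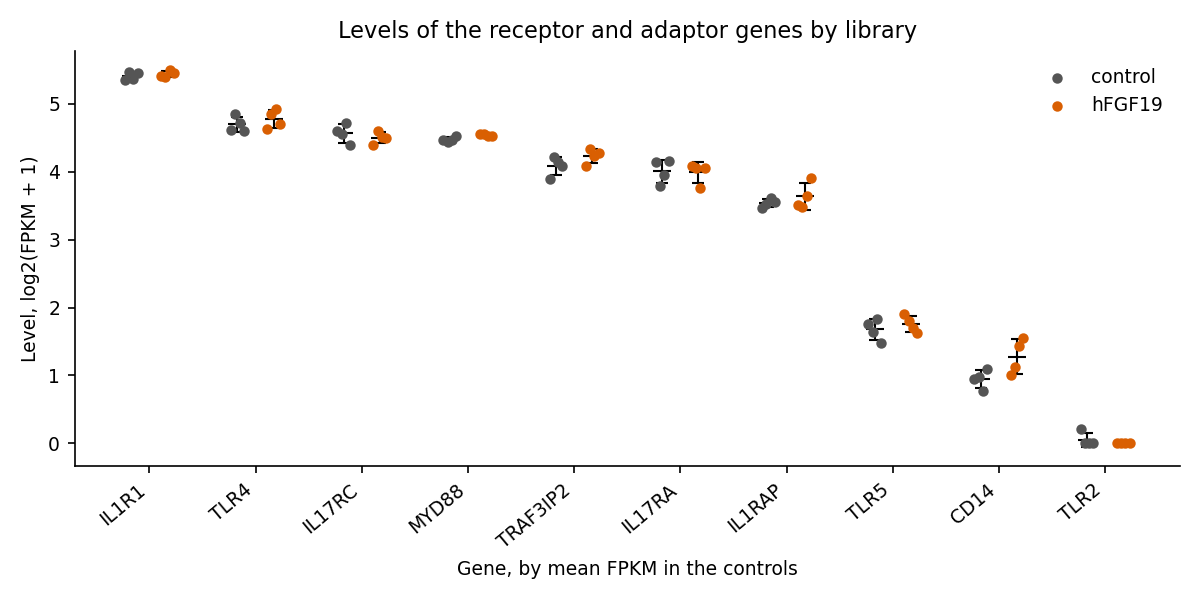
Level of each of the 10 genes in log2(FPKM + 1), with 1 point per library, 4 controls in grey and 4 hFGF19 libraries in orange, and bars for mean ± SD. Genes are ordered by mean FPKM in the controls, from IL1R1 (41.6 FPKM) to TLR2 (0.0386 FPKM), and the groups overlap in each gene.

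Among the receptors, IL1R1 (ENSG00000115594), which binds interleukin-1, had the highest transcript level of the 10 genes. Its level was 39.9, 43.2, 40.2 and 43.0 FPKM in controls 1 to 4 and 41.4, 41.2, 44.3 and 42.6 FPKM in hFGF19 libraries 1 to 4. The groups overlapped, and the means were 41.6 ± 1.76 and 42.4 ± 1.46 FPKM (SD, n = 4). The control mean lay above that of 77.2% of the genes tested. The log2 change was 0.03 ± 0.0530 (SE), with a 95% confidence interval of -0.09 to 0.14. The gene lies on the plus strand of chromosome 2 at chr2:102064544-102179874 (GRCh38, GENCODE 29), and each library gave it 1249 to 1532 reads.

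IL1RAP (ENSG00000196083; chr3:190514051-190659750, plus strand) encodes the accessory chain without which the interleukin-1 receptor does not signal. Its level was 10.1, 10.5, 11.3 and 10.8 FPKM in the controls and 10.4, 10.2, 11.5 and 14.04 FPKM with hFGF19. A single library, hFGF19 4, stood higher, and the other 3 hFGF19 libraries lay within or next to the range of the controls. The log2 change was 0.10 ± 0.0957 (SE), with an interval of -0.12 to 0.31. IL1R1 exceeded its accessory chain in every library, by 3.03-fold in hFGF19 4 and by 3.56-fold to 4.13-fold in the other 7. The mean log2 ratio of IL1R1 to IL1RAP was 1.97 ± 0.0923 in controls and 1.89 ± 0.195 with hFGF19 (SD, n = 4), which did not differ beyond the spread (exact two-sided permutation p = 0.571, or 0.771 adjusted over 2 ratios). Such a ratio compares levels per length of gene model, and does not depend on the scaling of a library.

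The chains of the interleukin-17 receptor had log2 changes close to 0, and IL17RC exceeded IL17RA in every library, by 1.19-fold to 1.75-fold. IL17RA (ENSG00000177663; chr22:17084954-17115694, plus strand), the chain shared by several receptors of the family, was at 16.6, 12.8, 14.5 and 16.8 FPKM in the controls and 15.96, 15.7, 12.6 and 15.6 FPKM with hFGF19. The lowest library of each group, control 2 and hFGF19 3, lay close together. For IL17RA the log2 change was -0.02 ± 0.101 (SE), with an interval of -0.24 to 0.20. IL17RC (ENSG00000163702; chr3:9917074-9933630, plus strand), which pairs with IL17RA to bind interleukin-17A and F, was at 23.1, 22.4, 25.3 and 19.999 FPKM in the controls and 20.1, 23.1, 21.8 and 21.5 FPKM with hFGF19. Its hFGF19 libraries all lay within the range of the controls. For IL17RC it was -0.07 ± 0.0763 (SE), with an interval of -0.23 to 0.10. The mean log2 ratio of IL17RC to IL17RA was 0.58 ± 0.268 in controls and 0.54 ± 0.195 with hFGF19 (SD, n = 4, exact two-sided permutation p = 0.771, also after adjustment over 2 ratios).

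The Toll-like receptors ranged from TLR4, the second highest of the 10 genes, to TLR2, the lowest. TLR4 (ENSG00000136869; chr9:117704175-117724730, plus strand), the receptor for bacterial lipopolysaccharide, was at 23.5, 27.7, 25.4 and 23.3 FPKM in the controls and 23.8, 27.7, 29.4 and 25.1 FPKM with hFGF19. The libraries numbered 1 and 4 lay at 23.3 to 25.1 FPKM and those numbered 2 and 3 at 25.4 to 29.4 FPKM, in both groups. That split was drawn from the data and got no test, and TLR4 was the only one of the 10 genes in which it left no overlap. The log2 change with hFGF19 was 0.08 ± 0.0810 (SE), with an interval of -0.10 to 0.26.

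TLR5 (ENSG00000187554; chr1:223109406-223143282, minus strand), the receptor for flagellin, was at 2.39, 2.12, 2.56 and 1.79 FPKM in the controls and 2.75, 2.48, 2.25 and 2.08 FPKM with hFGF19, on 79 to 125 reads per library. The groups overlapped over most of their range. Its log2 change was 0.08 ± 0.115 (SE), with an interval of -0.17 to 0.33. TLR2 (ENSG00000137462; chr4:153684070-153705702, plus strand), the receptor for bacterial lipoproteins, had 0.155 FPKM in control 1, or 5 reads by its annotated mean length, and 0 reads in the other 7 libraries. A count of 0 allows up to 3 reads, which is 0.0794 to 0.0963 FPKM depending on the library, and these limits cover counting error only. A difference between the groups was not detectable at this depth. With a single value above 0, each arrangement of the libraries gives the same absolute difference of means. The exact two-sided permutation p = 1 was thus fixed in advance and cannot decide the question.

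The sequence in front of the RefSeq start site is shown for TLR4 and TLR2, since they hold the highest and lowest levels among the Toll-like receptors in the set of members. Each line gives the 250 bases before the RefSeq start on the gene's strand, 5′ to 3′, with CG dinucleotides in capitals (RefSeq, GRCh38.p14, chr9:117704153-117704402 and chr4:153684030-153684279, both plus strand). GENCODE 29 places the earliest start of both genes further upstream, so that 228 bases of the TLR4 window and 210 of the TLR2 window lie inside the GENCODE bounds given above.
TLR4: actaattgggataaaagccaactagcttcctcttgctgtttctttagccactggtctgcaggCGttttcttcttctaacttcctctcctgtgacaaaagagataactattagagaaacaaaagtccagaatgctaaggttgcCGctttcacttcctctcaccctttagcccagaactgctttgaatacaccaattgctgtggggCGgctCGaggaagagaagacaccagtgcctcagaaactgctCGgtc
TLR2: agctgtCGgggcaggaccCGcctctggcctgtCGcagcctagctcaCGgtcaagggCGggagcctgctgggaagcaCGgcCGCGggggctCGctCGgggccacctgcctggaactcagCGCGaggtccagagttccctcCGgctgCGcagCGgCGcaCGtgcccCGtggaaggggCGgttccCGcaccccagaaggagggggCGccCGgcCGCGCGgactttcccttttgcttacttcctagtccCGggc

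The TLR4 window held 5 CG dinucleotides and was 46.4% G or C, while the window of TLR2, the gene with almost no reads, held 26 and was 72.4% G or C. Over the 35116 windows of the same length in the RefSeq table the medians were 11 CG dinucleotides and 58% G or C. Among the other members, the window of IL1RAP held 33 CG dinucleotides, those of TLR5 and MYD88 19, and those of IL17RC and TRAF3IP2 6. The windows of IL1R1, the gene with the highest level, held 3 to 31, and that of CD14, a gene of low level, held 5. A link between these counts and level was not tested. The GC box GGGCGG, searched on both strands, occurred 2 times in the TLR2 window and 1 time in the TLR4 window, and was present in 42.6% of all windows. RefSeq windows were found by symbol for 9 of the 10 genes, not for IL17RA, and came to 13 because some genes have several starts. The NF-kB consensus motif, searched on both strands, matched in 0 of these 13 windows and in 5.21% of all windows. With so few windows and so low a share, a count of 0 does not set these genes apart. These matches describe letters in the windows, not binding.

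CD14 (ENSG00000170458; chr5:140631728-140633701, minus strand), the co-receptor that hands lipopolysaccharide to TLR4, had the largest log2 change of the 9 members tested, though it did not pass. Its level was 0.928, 0.968, 0.705 and 1.14 FPKM in the controls and 1.02, 1.18, 1.70 and 1.92 FPKM with hFGF19. Libraries hFGF19 2, 3 and 4 stood above every control, hFGF19 2 only just, while hFGF19 1 lay within the range of the controls. The means were 0.935 ± 0.178 and 1.45 ± 0.426 FPKM (SD, n = 4), on 77 reads over the controls and 117 over the hFGF19 libraries. The log2 change was 0.33 ± 0.152 (SE), with an interval of -0.01 to 0.67 and an adjusted p of 0.9998 by limma. In pairs of libraries with the same number, CD14 was higher with hFGF19 in 4 of 4. CD14 was 1 of 2 members with that pattern, which 6.66% of all genes tested showed.

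CD14 is best known as a monocyte marker, so myeloid markers are given beside it. Of 10 such markers 1 was above the filter, CSF1R at 4.66 and 4.14 FPKM, which did not pass. AIF1 and S100A12 had 0 reads in all libraries, and the leukocyte marker PTPRC had 23 reads over the controls and 13 with hFGF19. The summed level of the 10 markers was 5.25 to 6.68 FPKM in the controls and 3.98 to 5.28 FPKM with hFGF19. It was not higher with hFGF19, but CSF1R made up most of it, so it says little about the other markers. In RNA from whole cultures, a higher level per cell and more cells with the transcript cannot be told apart.

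LY96, which encodes the MD-2 protein that forms the lipopolysaccharide site with TLR4, was the other low component of this receptor. It was at 0.325, 0.712, 0.952 and 0.191 FPKM in the controls and 0.371, 1.13, 1.73 and 1.34 FPKM with hFGF19. The groups overlapped, the counts were 2 to 16 reads per library, and the mean was below the filter. With no filter on low values its log2 change was 0.46 ± 0.245 (SE), with an adjusted p of 0.922 by limma. TLR4 transcripts were thus present at a mean of 25.0 FPKM in the controls, against 0.935 FPKM for CD14 and 0.545 FPKM for LY96.

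Both adaptors were expressed at levels within the range of the receptors, and neither passed the test. MYD88 (ENSG00000172936; chr3:38138478-38143022, plus strand) was at 21.2, 20.6, 21.0 and 22.0 FPKM in the controls and 22.4, 22.5, 22.1 and 21.9 FPKM with hFGF19. It varied least of the 10 genes, with a coefficient of variation of 3.18% over the 8 libraries. The groups overlapped only between control 4 and hFGF19 4. Its log2 change was 0.07 ± 0.0507 (SE), with an interval of -0.05 to 0.18. TRAF3IP2 (ENSG00000056972; chr6:111556454-111606278, minus strand) was at 13.9, 17.6, 16.6 and 15.98 FPKM in the controls and 15.9, 19.1, 17.7 and 18.4 FPKM with hFGF19. It was the other member that was higher in 4 of 4 pairs of the same number, although the groups overlapped. For TRAF3IP2 the log2 change was 0.14 ± 0.0828 (SE), with an interval of -0.04 to 0.33 and an adjusted p of 0.9998 by limma. With the replicate number as a block, limma gave an unadjusted p of 0.0364 and an adjusted p of 0.700.

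**Figure D2:**
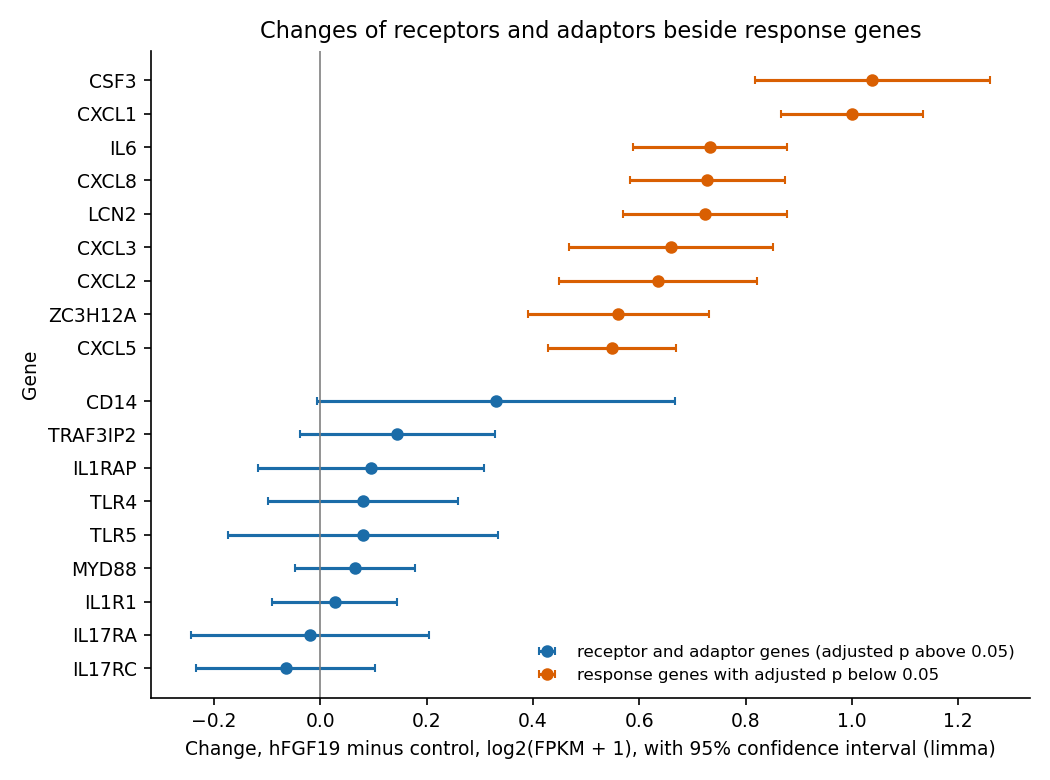
Change of each tested member (blue, 9 genes) and of the 9 response genes with an adjusted p below 0.05 (orange), hFGF19 minus control in log2(FPKM + 1), with 95% confidence intervals from limma. The intervals of all 9 members include 0. The response genes shown, picked by their adjusted p, lie between 0.55 (CXCL5) and 1.04 (CSF3). The 6 tested response genes that did not pass are left out and run from -0.08 (S100A9) to 0.82 (CSF2).

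The intervals limit how large a change could have been missed. For 8 of the 9 members tested, a 2-fold rise of the control mean lay above the upper end of the interval. CD14 was the exception, since a 2-fold rise of so low a level is 0.57 on the log2(FPKM + 1) scale, within its interval. With voom on the reads behind the FPKM values, the log2 change of CD14 was 0.58 with an interval of -0.02 to 1.18 and an adjusted p of 0.9998 (limma).

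In the controls the order of levels was IL1R1, TLR4, IL17RC, MYD88, TRAF3IP2, IL17RA, IL1RAP, TLR5, CD14 and TLR2. The ranges over the 4 controls overlapped between TLR4 and IL17RC, between IL17RC and MYD88, and between TRAF3IP2 and IL17RA. Within single libraries TLR4 was above IL17RC in each of the 4 controls, in control 3 by only 25.4 against 25.3 FPKM. IL17RC and MYD88 changed order between controls, as did TRAF3IP2 and IL17RA. These differences between genes were not tested. The other neighbours had ranges that did not overlap. The order also depends on the gene length behind an FPKM value, which was the mean length of all annotated transcripts. With the longest annotated transcript as the length, IL1R1 was at 14.3 FPKM, IL17RC at 13.1, MYD88 at 11.5 and TLR4 at 10.04, so that TLR4 moved from the second to the fourth place. IL17RA, at 8.11 FPKM, then stood above TRAF3IP2, at 5.43 FPKM. IL1RAP, TLR5, CD14 and TLR2 kept their places at the bottom, and IL1R1 stayed at the top.

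**Figure D3:**
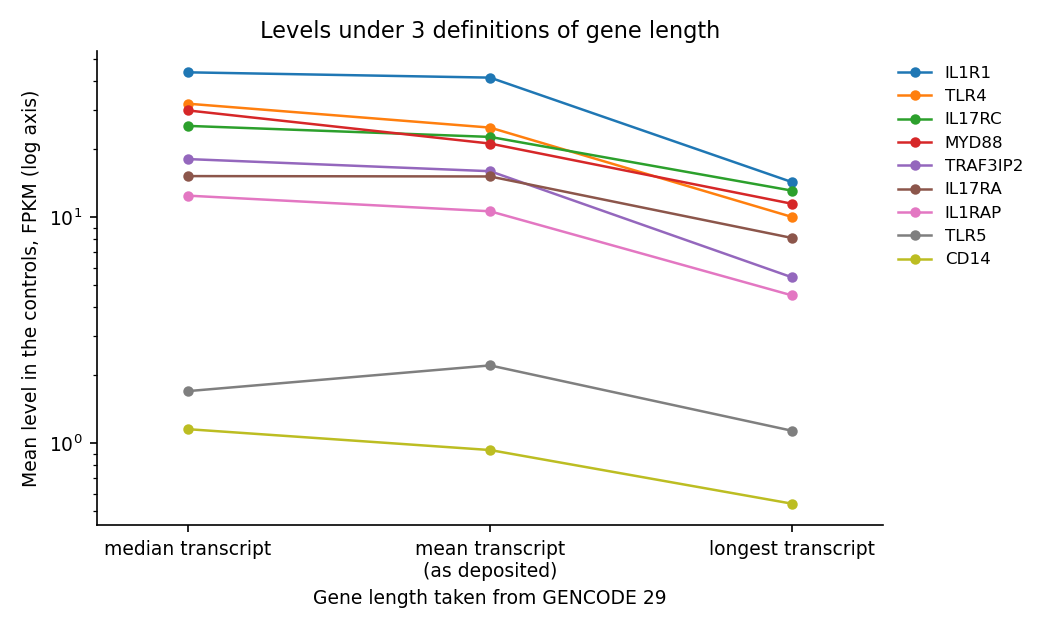
Mean level of 9 members in the controls, in FPKM on a log axis, with the median, mean (as deposited) or longest transcript of GENCODE 29 as the gene length. Lines cross among TLR4, IL17RC and MYD88 and between TRAF3IP2 and IL17RA, and IL1R1 is highest and CD14 lowest of the 9 throughout.

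The rest of the pathway was followed through 7 lists with 75 genes in all, of which 47 were above the filter. Of these 47 genes 0 passed by limma, against 0.106% of all genes tested, and 0 by voom, against 14 of 14100. An unadjusted p below 0.05 was found for 3 by limma, namely IL1A, IL1B and NFKBIZ, against 4.23% of all genes. By voom it was found for 4, these and IL17RD, against 545 of 14100 genes. In all, 23 had a log2 change above 0, against 43.7% of all genes. The median log2 change of the 47 was -0.0046, against -0.01 over all genes. The IL-1 family receptors other than IL1R1 and IL1RAP included the decoy IL1R2, at 5.32 and 5.11 FPKM in controls and hFGF19 libraries, and the inhibitory receptor SIGIRR, at 18.2 and 17.99 FPKM. Of 8 such genes 4 were tested, and 0 passed. The X-linked relative IL1RAPL2 was at 8.10 and 7.89 FPKM.

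Of 12 IL-1 family ligands and antagonists 5 were tested and 0 passed. The log2 change was above 0 in all 5, against 43.7% of all genes, but for IL18BP, a binding protein of IL18 named after its value was seen, it was 0.01, with means of 3.03 FPKM in both groups. IL1A, an agonist of IL1R1, was at 6.94, 6.74, 7.24 and 6.97 FPKM in the controls and 8.92, 8.47, 8.51 and 9.30 FPKM with hFGF19. Its groups did not overlap, which 3.12% of all genes showed, and its log2 change was 0.30 ± 0.0652 (SE, adjusted p = 0.316, limma). IL1B, the other agonist, was at 2.93, 3.05, 3.73 and 3.77 FPKM in the controls and 5.18, 4.10, 6.10 and 5.35 FPKM with hFGF19. Its groups did not overlap either, with a log2 change of 0.50 ± 0.118 (SE, adjusted p = 0.423, limma). The antagonist IL1RN was at 4.46 ± 0.0674 and 4.99 ± 0.480 FPKM (SD, n = 4), and IL18, a cytokine of epithelium, at 58.4 ± 2.36 and 60.05 ± 3.41 FPKM.

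Ligands of the IL-17 family were all below the filter. IL17A, IL17F and IL25 had 0 reads in all 8 libraries, and IL17C, the member made by epithelium, had 4 reads over the controls and 0 with hFGF19. IL17B had 5 and 4 reads, and IL17D, the highest of them, had 75 and 69 reads, or 0.815 and 0.745 FPKM. IL17B and IL17D were named after their values were seen. Of the 9 other IL-17 family genes, 2 were tested, IL17RD at 12.6 and 11.4 FPKM and IL17RB at 3.60 and 3.68 FPKM, and 0 passed. Of the 12 IL-17 receptor partners, all of them tested, 0 passed. Among them the kinase gene TBK1 was at 82.1 and 80.5 FPKM and the transcription factor CEBPB at 187 and 180 FPKM. NFKBIZ, a cofactor of NF-kB that IL-1, IL-17 and Toll signals induce, was at 54.5 ± 1.18 and 64.1 ± 5.74 FPKM (SD, n = 4, log2 change 0.23 ± 0.0654, adjusted p = 0.730, limma).

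Other Toll-like receptors were also present. TLR1 and TLR6, close paralogs that may share reads and that act as dimers with TLR2, were at 7.31 and 6.91 FPKM in the controls and at 8.33 and 7.06 FPKM with hFGF19, while their partner was at the limit of detection. TLR3, the receptor for double-stranded RNA, was at 1.40 and 1.295 FPKM. Of these 7 receptors 3 were tested and 0 passed. Of the 11 co-receptors and TIR adaptors 6 were tested and 0 passed. They included TIRAP, which bridges TLR4 to MYD88, at 7.12 and 7.15 FPKM, the transporter of endosomal Toll-like receptors UNC93B1 at 88.8 and 81.9 FPKM, and their chaperone HSP90B1 at 832 and 801 FPKM.

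The kinase module shared by the IL-1 and Toll routes had 15 of its 16 genes above the filter, and 0 of them passed. IRAK1, the kinase that MYD88 recruits, was at 531 ± 43.8 and 527 ± 46.0 FPKM, and TRAF6 at 10.2 ± 1.48 and 9.26 ± 1.19 FPKM (SD, n = 4). TAB2, which links TRAF6 to the kinase TAK1, was at 74.8 and 72.1 FPKM. IRAK2, the gene with the smallest unadjusted p of this list, was at 7.19 and 7.95 FPKM (adjusted p = 0.9998, limma).

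Of 18 genes that these receptors are known to induce, 15 were tested, 9 rose and 0 fell, against 0.0993% of all genes that rose, and the median log2 change of the 15 was 0.64. The difference between these genes and the receptors was not tested. The list was chosen with these results known, so its count is a description. CXCL1, a neutrophil chemokine, was at 291 ± 3.69 and 584 ± 45.8 FPKM, CXCL8 at 414 ± 33.7 and 685 ± 31.9 FPKM, and LCN2, a siderophore-binding protein, at 125 ± 11.3 and 206 ± 10.9 FPKM (SD, n = 4). The others that rose were CXCL2, CXCL3, CXCL5, CSF3, IL6 and ZC3H12A. The 6 that did not pass are named here after their values were seen. Their log2 changes were 0.82 for CSF2, 0.64 for CCL20, 0.23 for NFKBIZ, 0.15 for NFKBIA, 0.13 for TNFAIP3 and -0.08 for S100A9. The tested receptors and adaptors ran from -0.07 (IL17RC) to 0.33 (CD14). NFKBIZ, NFKBIA and TNFAIP3 lay within that range and S100A9 just below it. CSF2 and CCL20 lay above it, with adjusted p of 0.081 and 0.069 (limma). CXCL1, CXCL8, CXCL5, CSF3, IL6 and LCN2 stayed called when any 1 of the 8 libraries was dropped, CXCL2 and CXCL3 in 2 of the 8 cases and ZC3H12A in 1.

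**Figure D4:**
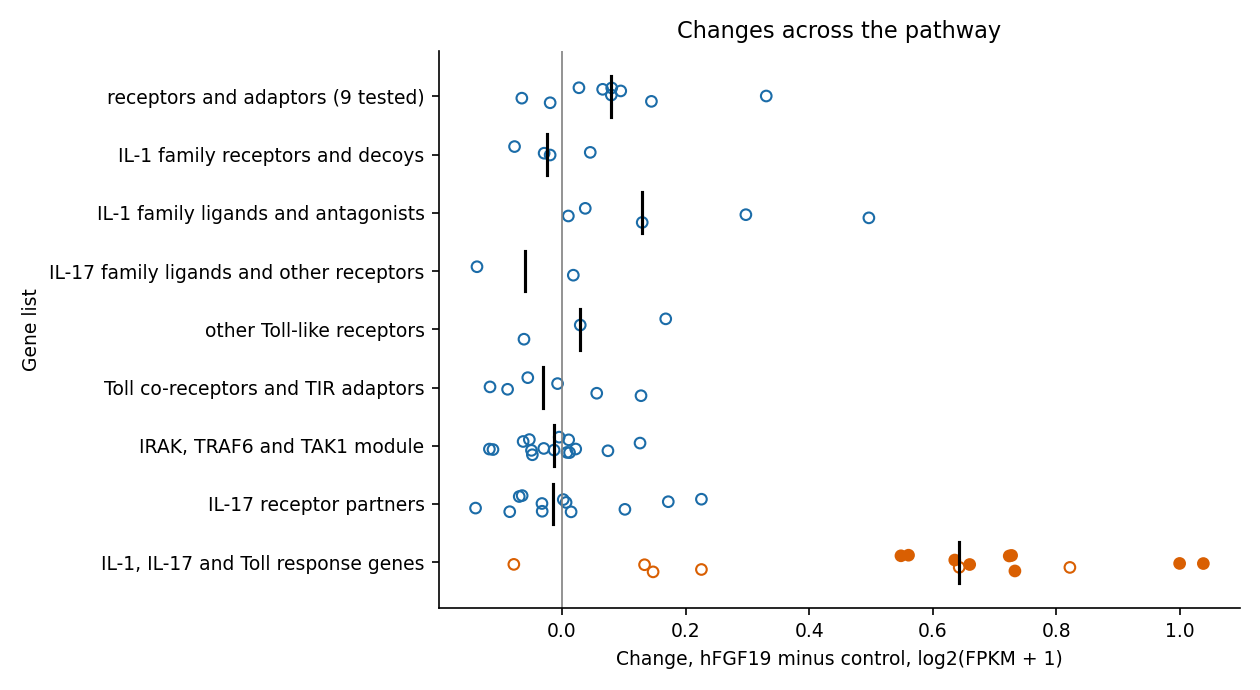
Change of every tested gene in the receptor and adaptor set (9 of 10 genes) and in 8 pathway lists, hFGF19 minus control in log2(FPKM + 1), with a black line at each median. Filled points have an adjusted p below 0.05 by limma, and all of them, 9, lie in the bottom row of response genes.

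By the pattern over the 8 libraries, the genes most like each tested member had Pearson correlations of 0.946 to 0.994 in log2(FPKM + 1). The closest were SF3B2 for IL17RA (0.994), ERCC1 for TLR4 (0.989) and ALG3 for TRAF3IP2 (0.985). They are given as a description over 8 libraries that share their preparation, picked as the highest of 14099 genes.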

How the data were processed

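FPKM values were taken as deposited by the authors; per the submitters' processing notes, HISAT2 2.0, StringTie 1.3.0 and the build hg19 were involved, with no role named. All 8 columns were matched to samples by title. Library totals were worked out from the steps between low values. For genes in GENCODE 29 the mean length of the annotated transcripts was tried first. It was kept where the reads came out whole within 0.02 reads, as in all 35972 such genes with a value. For the rest of the 36884 genes with a value, the shortest length giving whole reads was taken. GRCh38 positions are those of GENCODE 29. Neither strand use in counting nor removal of PCR copies is stated. Other genes shared at most 4.63% of a member's exon bases and had mean levels of at most 0.21 FPKM.

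Groups were compared with limma 3.58.1 in R 4.3.3 on log2(FPKM + 1) with a variance trend and Benjamini-Hochberg adjustment over the 14100 genes that averaged 1 FPKM or more, at a threshold of 0.05, after a test on simulated data. TLR2, below the filter, and the receptor ratios were compared by exact two-sided permutation (Python 3.11.15). Its smallest p is 0.029 for the ratios, while for TLR2, with a single value above 0, its outcome was fixed in advance. Alternatives were a pseudocount of 0.1, no filter, TPM, quantile normalization, a replicate block, leaving out each library, replicate numbers 1 and 4 or 2 and 3 alone, and voom on recovered reads. Other gene lengths were added after seeing the data. The labels number both groups 1 to 4, and deviations of same-numbered libraries from their group means correlated at 0.30, 0.17, 0.17 and 0.11. Since each was over 0.1 the numbers were used as a block in an alternative. Libraries of different number correlated at -0.45 to 0.44, however. The values of 0.44 for control 2 with hFGF19 3 and 0.41 for control 4 with hFGF19 1 exceeded every same-number value. Pairing by number is thus not established by the labels or by these values, and the main fit and main permutation tests did not use it. Named genes were the members, the called genes, the 2 highest and the 1 with the smallest p of each list, a fixed set of names, and genes most like a member, of which the closest are printed. The members and lists were chosen with earlier results of these data known.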

Additional observations from a re-analysis of the deposited data

Results flagged for a closer look

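Groups of 4 libraries were searched for a single value far from the rest, by Dixon's ratio of its gap to the whole range. Of 90 groups 5 exceeded the 95% critical value, and about 4.5 would do so by chance. IL17RA reached 0.900, because its level was 12.6 FPKM in hFGF19 3 but 15.6 to 15.96 FPKM in hFGF19 1, 2 and 4. TRAF6 reached 0.913 through the same library, which had 11.05 FPKM where those 3 had 8.57 to 8.78 FPKM. TLR2 reached 1, since control 1 had all 5 reads of the gene and controls 2 to 4 had 0. TBK1 reached 0.902 with 86.0 FPKM in control 4 against 80.6 to 81.1 FPKM in controls 1 to 3. CXCL5 reached 0.852 with 125 FPKM in control 4 against 112 to 114 FPKM in controls 1 to 3, all below the hFGF19 libraries.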

How the results depend on the processing

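In each of the alternatives run, 0 members were called, out of 9 tested or, with no filter on low values, out of 10. The count of 15 changed genes was 7 to 13 without 1 library (7 without control 1, hFGF19 2 or hFGF19 4, 8 without control 3 and 9 without hFGF19 1), 8 with replicate numbers 1 and 4 alone, 9 with numbers 2 and 3 alone, and 10 to 21 otherwise. The replicate block gave 21 and changed the call of no gene followed through the alternatives, which did not include CSF2 or CCL20. Of the response genes that rose, CXCL2, CXCL3 and ZC3H12A were not called with no filter on low values or with numbers 2 and 3 alone, IL6 was not called with numbers 2 and 3 alone, and CXCL2 and CXCL3 were not called with numbers 1 and 4 alone. Of the members, IL1R1, IL17RC, TLR4, TLR5, CD14, MYD88 and TRAF3IP2 kept the sign of their log2 change throughout, but without 1 library the value ranged from 0.0058 to 0.046 for IL1R1, -0.12 to -0.014 for IL17RC, 0.031 to 0.13 for TLR4, 0.014 to 0.13 for TLR5, 0.24 to 0.42 for CD14, 0.053 to 0.083 for MYD88 and 0.082 to 0.19 for TRAF3IP2, and TLR2 could not be compared without control 1, since all values were then 0. IL1RAP turned to -0.0067 with numbers 2 and 3 alone and was 0.0035 without hFGF19 4. IL17RA turned to 0.036 with these numbers and ranged from -0.092 to 0.057 without 1 library. The log2 ratio of IL1R1 to IL1RAP differed by -0.12 to 0.022 without 1 library, and that of IL17RC to IL17RA by -0.16 to 0.026. Other log2 changes that turned sign were not called. With numbers 2 and 3 alone they were -0.012 for IL17RB, 0.25 for IL1R2 (-0.41 with numbers 1 and 4 alone), 0.033 for SIGIRR, 0.017 for TBK1 and -0.045 for TLR6. With numbers 1 and 4 alone they were -0.0097 for IL18, 0.048 for IL1RAPL2 and 0.064 for TIRAP, which was 0.013 after quantile normalization. Without 1 library the ranges were -0.15 to 0.021 for CEBPB, -0.050 to 0.0999 for IL17RB, -0.23 to 0.041 for IL1R2, -0.083 to 0.016 for IL1RAPL2, -0.069 to 0.052 for IRAK1, -0.071 to 0.056 for SIGIRR, -0.072 to 0.024 for TBK1, -0.097 to 0.070 for TIRAP and -0.049 to 0.11 for TLR6. The cause was not tested. CD14, with 14 to 39 reads per library, and TLR2 are limited by depth.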

Other observations

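The gene lengths behind the deposited values were set against an annotation. For 35972 of 35972 genes with a value that are also in GENCODE 29, the length was the mean of the lengths of all annotated transcripts, to the nearest base. GENCODE 29 is an annotation of GRCh38, whereas hg19 is the build in the submitters' processing notes. With these lengths, 29 to 53 reads per library, of totals up to 20752753, were not recovered. For TLR2, with a single value above 0, the annotated mean of 1820 bases was taken as the length. By that length the value equals 5 reads, but a single value cannot set length and reads apart.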
